A study of Mus musculus with 42 samples.

Results

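Brightly fluorescent Lgr5-EGFP cells of the small intestine were compared with those of the colon across all named genes of an Affymetrix mouse array. The samples were chosen by their titles: 2 arrays of Lgr5Hi cells from small intestine and 3 from colon, 5 of the 42 arrays in the series, all from the Lgr5-EGFP-IRES-CreERT2 line. In this line green fluorescent protein and a tamoxifen-dependent Cre recombinase are expressed from the Lgr5 locus, so fluorescence follows Lgr5 transcription. The allele is known to be silent in patches of crypts, so bright cells come from part of the stem cells of an organ. The mice were healthy, untreated adults with a minimum age of 7 to 8 weeks, taken without regard to sex. The series was built to find genes enriched in stem cells of the pylorus, the outlet of the stomach, and the intestinal cells served there as reference populations. The extraction protocol is written for pyloric glands (chelation, digestion to single cells, sorting with propidium iodide as the dead cell stain), and the labels give it for the intestinal samples too. Dim cells (Lgr5Lo) of the same organs, 2 arrays of small intestine and 3 of colon, were set beside the bright cells, and 8 sorted pyloric arrays of the line entered the fit to estimate the spread. The labels call the arrays of a group biological replicates. The p-values rest on the spread between replicates pooled over the 6 sorted groups of the line (18 arrays), not on that of the 5 bright arrays alone.

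The epithelium of both organs is renewed from stem cells at the crypt base, which express the R-spondin receptor Lgr5 and depend on Wnt signals. In the small intestine these stem cells lie between Paneth cells, which secrete lysozyme, defensins and niche signals. The colon has no typical Paneth cells, and secretory cells of goblet type occupy the crypt base there. Stem cells of each region keep a positional identity that is set in development by Hox, Cdx and Gata factors.

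Values are log2 intensities, in which a step of 1 is a 2-fold change of signal. One probe set stood for each of 22180 genes. The 5 arrays had gene medians of 4.29 to 4.47 and correlated with one another at 0.929 to 0.968 over all probe sets. No detection calls were used, so where 1 organ lay at or below the median of all values, 4.36, the size of the difference is uncertain. A gene was called when its Benjamini-Hochberg adjusted p in limma, over all genes, was under 0.05. Of the 22180 genes 641 were called (2.89%), 309 higher in the small intestine (1.39%) and 332 lower (1.5%), and 617 of them differed at least 2-fold. The median difference over all genes was -0.02. Counts of called list members below are to be read beside these shares of all genes, and 1 call in a list is not read as a result about that list. In 32.9% of all genes the 2 groups did not overlap, and every one of the 641 called genes was among them. A lack of overlap therefore adds no support to a call. Without small intestine replicate 1 there were 359 calls and without replicate 2 there were 410. These are sorted bulk samples, in which fewer cells of a type and less RNA per cell cannot be told apart.

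**Figure D1:**
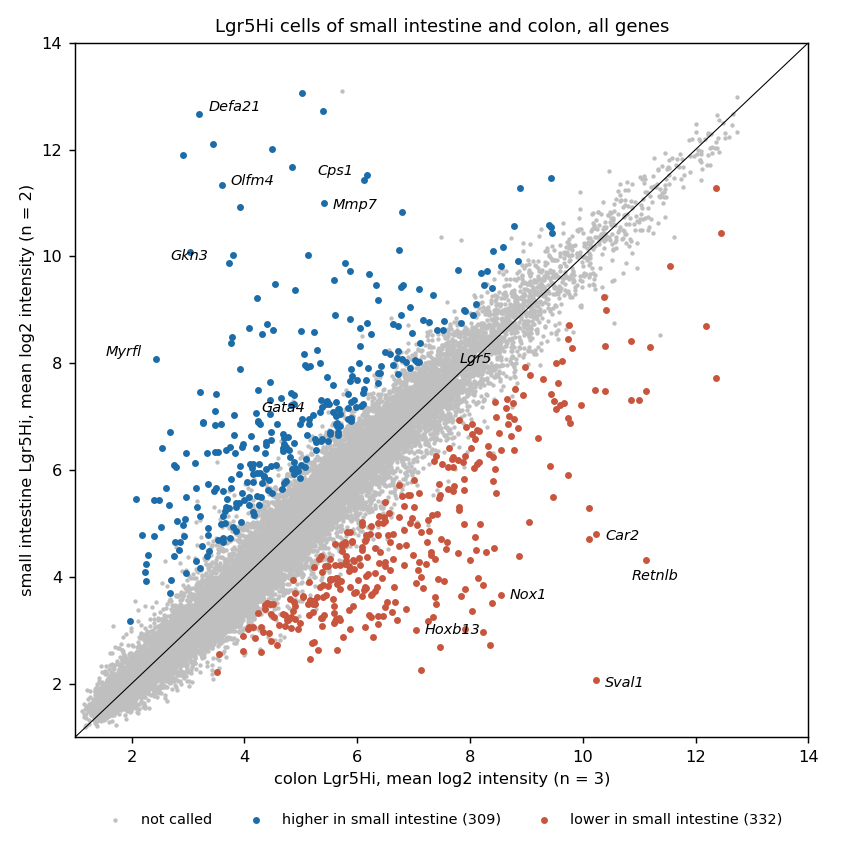
Mean log2 intensity of each of 22180 genes in colon Lgr5Hi cells (x axis, n = 3) and small intestine Lgr5Hi cells (y axis, n = 2), with the line of equality. Blue points are the 309 genes called higher in the small intestine and red points the 332 called lower. Defa21, Olfm4 and Mmp7 lie far above the line, Retnlb, Sval1 and Nox1 far below it, and Lgr5 close to it.

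Lgr5 itself checked the sort. It read 8.32 and 8.37 in bright cells of the small intestine and 7.01, 7.72 and 8.35 in those of the colon, where replicate 1 was lowest. The difference of 0.65 ± 0.42 (SE) was not called (adjusted p = 0.619). In dim cells Lgr5 read 5.52 and 6.20 in the small intestine and 6.57, 5.49 and 5.31 in the colon, below every bright array of either organ. In colon replicate 1 the gap was small, 7.01 in bright against 6.57 in dim cells. Its summed level of Wnt target genes was 10.43 in bright and 10.71 in dim cells, and that of intestinal stem cell genes 13.02 and 13.06. For both lists every other bright array was above the dim array of its number.

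The 4 marker genes given for these cells differed in the direction of their organ. Olfm4, a secreted glycoprotein that marks stem cells of the mouse small intestine, read 11.24 and 11.42 there and 2.77, 3.60 and 4.42 in the colon. It was 212-fold higher in the small intestine (log2 difference 7.73 ± 0.57, adjusted p = 5.42e-08). Mmp7, the matrilysin with which Paneth cells activate their defensins, read 10.94 and 11.06 against 4.77, 5.77 and 5.68, a difference of 5.59 ± 0.49 (adjusted p = 3.38e-07). Its probe sets did not give the same size, since their mean differed by 2.88 and was still called. Retnlb, a goblet cell protein that binds bacteria, read 4.09 and 4.53 in the small intestine and 11.03, 11.41 and 10.92 in the colon, with a difference of -6.81 ± 0.42 (adjusted p = 4.82e-09). Nox1, the superoxide-producing oxidase of colonic epithelium, read 3.30 and 4.02 against 8.37, 8.15 and 9.13, with a difference of -4.89 ± 0.38 (adjusted p = 1e-07). The organs stood well apart on every array for all 4 genes, and the 4 calls were kept in all 16 other settings of the analysis.

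The promoters of genes at both ends of the comparison are shown, since they hold the letters just before the start of genes called between the organs. The sequences are the 250 bases before the annotated start in RefSeq (GRCm38.p6), written along the gene's strand. Capitals mark the letters searched on both strands. These were AGATAA for the zinc finger factors Gata4 to Gata6. For the Cdx homeodomain factors TTTATG was used. The form TTTATA was the second for them. Its complement is also the core of the box that the TBP protein binds in many promoters. The copies closest to the start in Mmp7 and Fabp1 lie about where that box usually lies, while those in Slc3a1 lie nearer to the start. CAAAGTCCA was used for the nuclear receptor Hnf4a. Olfm4 (chr14:80000052-80000301, plus strand) and Mmp7 (chr9:7691840-7692089, plus strand) stand for genes higher in small intestinal stem and Paneth cells. Nox1 (chrX:134111855-134112104, minus strand) stands for the colon, and no entry was matched for Retnlb. Fabp1 (chr6:71199629-71199878, plus strand) and the amino acid transporter subunit Slc3a1 (chr17:85028097-85028346, plus strand) stand for absorptive genes higher in the small intestine.
Olfm4: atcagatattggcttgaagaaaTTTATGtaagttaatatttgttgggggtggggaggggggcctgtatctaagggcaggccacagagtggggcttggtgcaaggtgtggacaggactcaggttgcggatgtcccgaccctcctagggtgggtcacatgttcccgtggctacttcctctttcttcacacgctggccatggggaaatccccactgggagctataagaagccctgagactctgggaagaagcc
Mmp7: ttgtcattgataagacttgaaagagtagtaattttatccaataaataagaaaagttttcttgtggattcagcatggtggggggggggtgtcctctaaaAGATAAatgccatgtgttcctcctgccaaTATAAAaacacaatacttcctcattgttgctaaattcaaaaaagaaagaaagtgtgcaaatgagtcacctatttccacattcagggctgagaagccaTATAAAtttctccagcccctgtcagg
Nox1: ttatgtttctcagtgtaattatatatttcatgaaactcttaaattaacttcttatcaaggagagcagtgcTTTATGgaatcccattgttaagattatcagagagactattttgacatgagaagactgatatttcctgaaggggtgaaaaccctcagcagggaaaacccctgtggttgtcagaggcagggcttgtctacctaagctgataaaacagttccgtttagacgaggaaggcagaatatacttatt
Fabp1: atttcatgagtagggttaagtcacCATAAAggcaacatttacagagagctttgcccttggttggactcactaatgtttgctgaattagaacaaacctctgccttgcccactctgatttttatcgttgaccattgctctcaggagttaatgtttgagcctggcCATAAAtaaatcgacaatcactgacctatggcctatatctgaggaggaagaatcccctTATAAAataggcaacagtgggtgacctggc
Slc3a1: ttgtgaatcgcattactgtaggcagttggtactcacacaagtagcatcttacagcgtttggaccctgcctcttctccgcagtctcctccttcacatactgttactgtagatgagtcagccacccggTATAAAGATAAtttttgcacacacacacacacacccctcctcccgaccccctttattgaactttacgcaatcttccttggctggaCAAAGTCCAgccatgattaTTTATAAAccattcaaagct

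Promoters were matched for 234 of the genes called higher, 259 of those called lower and 16990 of all genes tested, over 300 bases from 250 before to 50 after the start. AGATAA stood in 15.4% of the promoters of genes higher in the small intestine, in 7.72% of those lower and in 9.98% of all. TTTATG stood in 12.0%, 10.4% and 10.5% of the same 3 sets and TTTATA in 18.4%, 15.8% and 12.9%, with copies of the TBP box included. CAAAGTCCA was in 6 promoters of the higher genes (2.56%), 1 of the lower (0.386%) and 0.436% of all. The 6 genes were Slc3a1, Gimd1, Slfn2, Pipox, Btnl2 and Cd302, and the 1 was Hsd3b3. TGACCTTTG, a nuclear receptor type, was in 2 promoters of the higher genes, those of Rbp2 and Cyp3a25, in none of the lower and in 0.436% of all. AGATAA and TTTATA share the letters ATAA or their complement and can overlap, as they do in Slc3a1. These shares describe letters in a window, and no test was made of them.

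**Figure D2:**
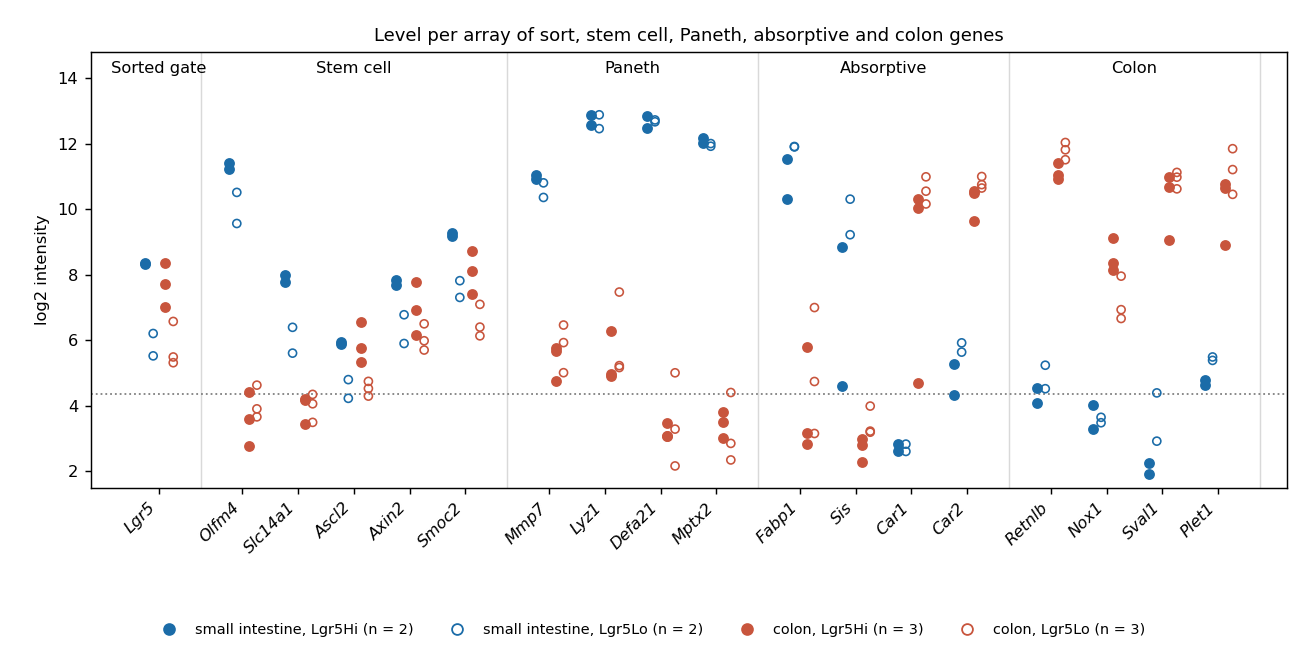
Log2 intensity of 18 genes on each sorted array of small intestine (blue) and colon (red), with filled points for Lgr5Hi and open points for Lgr5Lo cells and a dotted line at the median of all values, 4.36. Lgr5, Ascl2, Axin2 and Smoc2 have bright cells of both organs in 1 range, while Olfm4, Mmp7, Defa21 and Mptx2 are high in the small intestine and Retnlb, Nox1, Sval1 and Plet1 in the colon.

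Some genes of the stem cell state were called higher in the small intestine. Of 33 measured intestinal stem cell genes 7 were called higher in the small intestine and 0 lower, with a median difference of 0.44. Besides Olfm4 these were the urea transporter Slc14a1, Agr3, Igfbp4, Msi1, Dach1 and Fstl1. Slc14a1 read 7.77 and 8.00 in the small intestine and 4.16, 4.20 and 3.44 in the colon (difference 3.95 ± 0.34, adjusted p = 3.21e-07). Agr3, a protein disulfide isomerase, read 7.77 and 6.65 against 4.79, 4.79 and 4.89 (2.39 ± 0.33, adjusted p = 1.04e-04). The colon arrays lay below the small intestinal ones for both genes, as for every gene called higher in the small intestine. The RNA-binding protein Msi1 was 1.67 higher, the transcription factor Dach1 1.98 higher and the IGF-binding protein Igfbp4 1.81 higher on the log2 scale.

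No Wnt target or feedback gene was called between the organs, which does not show that their levels were equal. In limma 0 of 19 measured Wnt target and feedback genes were called, 2 had an unadjusted p under 0.05, and their median difference was 0.30. Ascl2, the transcription factor that maintains the stem cell state, read 5.90 and 5.96 in the small intestine and 5.34, 5.76 and 6.55 in the colon, so the groups overlapped (difference 0.04 ± 0.32). Axin2, a negative feedback component of the pathway, read 7.70 and 7.83 against 6.17, 6.94 and 7.77 (difference 0.81 ± 0.42, adjusted p = 0.479). Sp5 had the smallest p of the list, with a difference of 0.90 ± 0.32 (adjusted p = 0.183), and was called when all 42 arrays were fitted. Colon replicate 1 was the lowest array for Lgr5, Ascl2, Axin2, Smoc2 and Rnf43, and its summed Wnt list level was 10.43, against 10.90 and 11.58 in the other colon arrays and 11.03 and 11.17 in the small intestine. Of the marker genes fixed for stem cells, Smoc2 differed by 1.15 ± 0.51 (adjusted p = 0.361), Lrig1 by -0.18 ± 0.40 (adjusted p = 0.939) and Prom1 by 0.44 ± 0.28 (adjusted p = 0.614).

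The neighbouring signalling lists gave few calls. Limma called 0 of 23 BMP pathway genes, 0 of 13 EGF receptor family genes and 0 of 16 Eph receptor and ephrin genes, of which 4, 3 and 4 had an unadjusted p under 0.05. The 1 call among 18 Notch pathway genes, beside 2.89% of all genes, was Atoh1, described with the secretory genes. Of the cell cycle genes, 0 of 20 of the G1/S list and 0 of 24 of the G2/M list were called, with 3 and 4 under an unadjusted p of 0.05. All 24 G2/M genes lay above 0, by 0.10 to 0.87 with a median of 0.52, where 10710 of the 22180 genes in all lay above 0. The mean level of the G2/M list was 8.05 and 8.07 in the small intestine and 7.34, 7.35 and 7.91 in the colon. Colon replicate 3 thus came close to the small intestine. Mki67, the proliferation antigen, read 9.13 and 9.48 in the small intestine and 8.84, 8.61 and 9.36 in the colon, and these overlapped.

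Hox calls went in 1 direction. Of 36 measured Hox genes, which encode the homeodomain factors that pattern the body axis, 14 were called lower in the small intestine, beside 1.5% of all genes, and 0 higher. The median difference of the 36 was -0.63. Hoxb13 read 2.99 and 3.00 in the small intestine and 6.24, 7.16 and 7.73 in the colon, a difference of -4.05 ± 0.39. Hoxd13 read 2.64 and 3.72 against 6.92, 6.61 and 8.24, a difference of -4.08 ± 0.41. The small intestinal arrays lay below the median of all values for both, and each colon array well above it. Hoxa13 differed by -2.26 ± 0.26, so that 3 of the 4 measured genes of paralogue group 13 were called, Hoxc13 being the exception at -0.31 ± 0.30.

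The clusters differed in how many of their genes were called. In the Hoxa cluster 7 of 9 genes were called lower, among them Hoxa5 at -2.70 ± 0.31, Hoxa9 at -2.30 ± 0.35 and Hoxa2 at -1.88 ± 0.27. The Hoxb cluster had 5 of 10, with Hoxb6 at -2.44 ± 0.39 and Hoxb9 at -2.33 ± 0.32 next to Hoxb13. In the Hoxd cluster 2 of 8 were called, Hoxd13 and Hoxd11 (-1.24 ± 0.25). In the Hoxc cluster 0 of 9 were called, and their differences ran from -0.36 to 0.25. The Hoxc genes lay near or below the array median in every bright array of both organs, with 4.49 as the highest reading. Without small intestine replicate 1 the Hox calls numbered 9 and without replicate 2 there were 8. Hoxb5 lost the call in 10 of 16 other settings and Hoxb7 in 8, in both cases with a block on the replicate number and without any 1 of the 5 bright arrays. Hoxa6 lost it in 5 settings, Hoxa10 in 4 and Hoxa3 in 2, among them those without either small intestinal array, and Hoxd11 without replicate 2. Hoxb13, Hoxd13, Hoxa13, Hoxa5, Hoxb9, Hoxa2, Hoxa9 and Hoxb6 kept the call in all 16 settings.

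**Figure D3:**
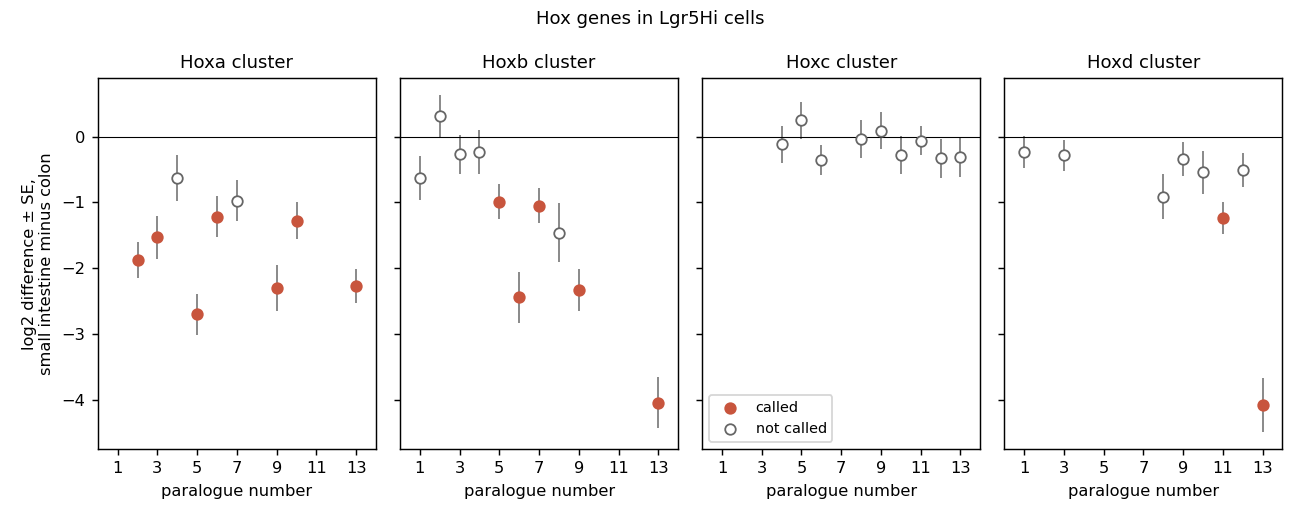
Log2 difference (small intestine minus colon, Lgr5Hi cells, ± SE from limma) of each measured Hox gene by paralogue number, 1 panel per cluster. Red points are the 14 called genes, all lower in the small intestine, with Hoxb13 and Hoxd13 near -4 and the 9 Hoxc genes near 0.

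Among 25 measured transcription factors of gut regions 3 were called higher in the small intestine and 3 lower, beside 1.39% and 1.5% of all genes. Gata4, the factor of the proximal small intestine, read 6.83 and 7.09 against 5.41, 4.70 and 5.31 in the colon (difference 1.82 ± 0.34, adjusted p = 0.00233), and its call was lost without small intestine replicate 2 (adjusted p = 0.0549). Gata5 was 2.24 ± 0.36 higher and Onecut2 2.49 ± 0.34 higher. The forkhead gene Foxd2 read 3.05 and 3.51 in the small intestine and 5.85, 5.91 and 6.90 in the colon (-2.94 ± 0.35, adjusted p = 1.93e-05). Klf4, a factor of goblet and surface cells, differed by -2.08 ± 0.38 and Foxa1 by -1.52 ± 0.33, the latter not called without small intestine replicate 1, small intestine replicate 2 or colon replicate 2. Cdx2, the intestinal master factor, read 7.45 and 7.79 against 6.36, 7.67 and 8.01 and was not called, nor were Cdx1, Gata6 and Hnf4a.

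Paneth cell genes held the largest differences towards the small intestine among the named genes. Of 16 measured Paneth genes 12 were called higher and 1 lower, with a median difference of 3.71. Lysozyme 1 (Lyz1) read 12.56 and 12.87 in the small intestine and 4.91, 6.29 and 4.97 in the colon (7.33 ± 1.27, adjusted p = 0.00112). The defensin Defa21 read 12.47 and 12.85 against 3.07, 3.47 and 3.06, 702-fold higher and the largest difference of any named gene (9.46 ± 1.26, adjusted p = 6.83e-05). Mptx2, a mucosal pentraxin, read 12.03 and 12.17 against 3.02, 3.82 and 3.49 (8.66 ± 0.82). Signal for these genes was near the top of the scale in both small intestinal arrays although the cells were sorted for Lgr5. Defa22 (8.98), Defa39 (8.04), Defa26 (7.53) and Defa33 (7.04) followed, and probe sets of near-identical defensins can share signal. Defa39 lost its call without either small intestinal array, and without replicate 2 the Paneth list had 8 calls.

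Single Paneth genes went other ways. Mptx1, the other mucosal pentraxin, was lower in the small intestine (7.03 and 7.61 against 11.36, 11.11 and 10.54, difference -3.69 ± 0.76, adjusted p = 0.00626). This call was lost without small intestine replicate 1, with all 25 arrays of the line and with all 42 arrays. The angiogenin Ang4 read 11.17 and 11.27 against 11.28, 10.64 and 9.97, and the organs overlapped. Defa24 read 13.15 and 13.03 in the small intestine and 4.31, 9.33 and 3.58 in the colon, where replicate 2 stood far above the others, and it was not called (7.35 ± 2.10, adjusted p = 0.0705). Colon replicate 2 was also the highest colon array for Lyz1, Defa26, Defa39, Itln1 and Fabp1, and the dim colon array of that number repeated this for Lyz1, Defa24, Defa39 and Fabp1. The summed level of the Paneth list was 15.37 and 15.55 in bright cells of the small intestine, 15.40 and 15.38 in its dim cells, and 11.89 to 12.64 in bright cells of the colon. How far Paneth cells within the sorted gate enter the organ difference was not tested.

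Goblet and deep crypt secretory genes gave calls towards the colon. Of 25 measured genes 9 were called lower in the small intestine and 0 higher, with a median difference of -1.21. Creb3l1, a transcription factor of secretory cells, read 5.64 and 6.19 against 9.18, 9.94 and 10.12 (-3.83 ± 0.44, adjusted p = 1.19e-05). Atoh1, the factor that commits cells to secretory fates, read 5.59 and 6.90 against 7.97, 9.05 and 8.19 (-2.16 ± 0.40, adjusted p = 0.00232), and Spdef, a goblet cell factor that acts downstream of it, differed by -1.59 ± 0.30. Every colon array was above both small intestinal arrays for these 3 genes, as for every gene called lower in the small intestine. The goblet cell chloride channel Best2 differed by -2.24 ± 0.35, and Agr2, which folds mucin in the endoplasmic reticulum, by -1.08 ± 0.20. The mucin Muc2 itself, at 7.44 and 9.62 against 10.11, 12.12 and 11.89, was not called (-2.85 ± 1.06, adjusted p = 0.233), nor were Tff3 and Fcgbp.

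The summed level of the goblet list was 13.72 and 14.19 in bright cells of the small intestine and 14.82 to 15.27 in those of the colon, and goblet cells in the gate were not counted. Without small intestine replicate 1 the list had 4 calls, and Atoh1 and Spdef lost theirs (adjusted p up to 0.165).

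Secreted antimicrobial proteins were divided. Of 25 measured, 3 were called higher in the small intestine (Reg1, Itln1 and Reg3a) and 2 lower (Retnlb and the phospholipase Pla2g10), with a median of -0.10. Reg1, a C-type lectin, read 8.93 and 11.12 against 3.58, 4.89 and 2.93 (6.23 ± 1.07, adjusted p = 0.00103). Reg3a read 3.81 and 7.07 against 2.18, 2.41 and 2.59 (3.05 ± 0.55). Small intestine replicate 2 was the higher array in both, and without it neither was called. Itln1, an intelectin of Paneth and goblet cells, was 4.03 ± 0.65 higher.

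Peptide hormone genes differed by region. Of 26 measured enteroendocrine genes 6 were called higher in the small intestine and 2 lower, with a median of 0.62. Gip, the incretin of duodenal K cells, read 10.05 and 9.98 in the small intestine and 5.61, 5.13 and 4.62 in the colon (4.90 ± 0.97, adjusted p = 0.00428). Ghrelin (Ghrl) read 8.77 and 8.70 against 4.71, 4.66 and 3.83 (4.33 ± 0.42), and cholecystokinin (Cck) was 3.12 ± 0.59 higher. The Cck call was lost without small intestine replicate 2. In the other direction, the distal gut hormone Pyy read 3.82 and 5.26 against 7.89, 8.66 and 8.72 (-3.89 ± 0.57), and Insl5, a peptide of colonic L cells, read 3.01 and 3.52 against 6.65, 5.78 and 6.66 (-3.10 ± 0.41). The organs did not overlap for any of the 5 hormones, as for every called gene. The pan-endocrine markers Chga and Chgb were not called (0.62 ± 0.66 and 1.19 ± 0.41, adjusted p = 0.831 and 0.174). The summed endocrine level was 11.97 and 12.14 in bright cells of the small intestine and 10.46 to 11.20 in the colon, and endocrine cells in the gate were not counted. Calls for higher genes numbered 2 without small intestine replicate 1 and 1 without replicate 2, and Gip and the endocrine factor Rfx6 were lost without either, with Gip reaching adjusted p = 0.0636. Tuft cell genes gave 0 of 18 calls in limma, with 2 under an unadjusted p of 0.05.

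Nox1 was accompanied by 1 further oxidase. Of 13 measured genes of the NADPH and dual oxidases and their subunits 2 were called lower in the small intestine and 0 higher, with a median of -0.34. Duox2, which releases hydrogen peroxide at the mucosal surface, read 4.22 and 4.98 against 5.79, 7.08 and 7.70 (-2.26 ± 0.52, adjusted p = 0.0155). Its call was lost without small intestine replicate 1, colon replicate 2 or colon replicate 3. The Nox1 activator Noxa1 (-0.64 ± 0.31, adjusted p = 0.448) and the shared subunit Cyba (0.19 ± 0.36, adjusted p = 0.926) were not called.

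Absorptive genes of the small intestine were present in its bright cells, unevenly between the 2 arrays. Of 36 measured enterocyte genes 11 were called higher and 0 lower, with a median of 1.10. Fabp1, which carries fatty acids in the cytosol, read 10.32 and 11.54 against 3.16, 5.79 and 2.83 (7.00 ± 0.96, adjusted p = 9.32e-05). Dgat1, which completes triglyceride synthesis, read 8.48 and 8.85 against 5.63, 6.27 and 6.24 (2.62 ± 0.29). The aminopeptidase Anpep was 3.85 ± 0.52 higher, the lipoprotein assembly factor Mttp 3.22 ± 0.47, the retinol carrier Rbp2 3.98 ± 0.60 and the apolipoprotein Apoc2 3.29 ± 0.53. Replicate 2 of the small intestine exceeded replicate 1 in 34 of the 36 genes, by a median of 1.77, against 0.02 over all genes. The sucrase-isomaltase gene Sis showed this gap, with 4.60 and 8.84. The summed enterocyte level was 12.84 and 14.07 in bright cells of the small intestine, 14.40 and 14.81 in its dim cells and 11.78 to 12.10 in bright cells of the colon. The number of enterocyte calls was 20 without replicate 1 and 6 without replicate 2, and the part of differentiated cells in the organ difference was not tested.

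Immediate early and heat shock genes separated the same 2 arrays in the other direction, with 3 of 23 higher in replicate 2, a median of -1.14 and summed levels of 12.64 and 11.47. Their colon levels were 12.08 to 12.14, and 0 of 23 were called between the organs in limma, with 1 under an unadjusted p of 0.05.

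Genes of colonocytes gave calls mostly towards the colon. Of 30 measured, 8 were called lower in the small intestine and 1, the guanylin relative Guca2b, higher (1.59 ± 0.41), with a median of -0.97. The carbonic anhydrase Car2 read 4.33 and 5.26 against 10.49, 10.57 and 9.64 (-5.44 ± 0.30, adjusted p = 9.9e-10). Slc5a8, the sodium-coupled carrier of butyrate, read 3.38 and 3.34 against 8.22, 8.05 and 7.83 (-4.67 ± 0.39). Car1 read 2.62 and 2.83 against 10.04, 10.30 and 4.71, and the low colon array was replicate 3. Its difference of -5.62 ± 1.19 (adjusted p = 0.00792) was not called without small intestine replicate 1, small intestine replicate 2 or colon replicate 2, nor in 3 other settings, with adjusted p up to 0.107. Colon replicate 3 was the lowest colon array in 23 of the 30 genes. Hsd11b2, which protects the mineralocorticoid receptor from glucocorticoids, differed by -2.56 ± 0.35, and the sodium channel subunit Scnn1a by -1.64 ± 0.30. Without small intestine replicate 1 the list had 3 lower calls, with Scnn1a lost, and without colon replicate 2 it had 4. Guca2b was not called without small intestine replicate 2 or colon replicate 1. Its call was also lost with the 5 bright arrays alone, all 25 arrays of the line or all 42 arrays.

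Further genes were lower in the small intestine by more than 16-fold. Sval1, a secreted seminal vesicle antigen-like protein, read 2.25 and 1.90 in the small intestine and 10.97, 10.67 and 9.05 in the colon, 285-fold apart (-8.16 ± 1.08, adjusted p = 6.49e-05). Plet1, a surface protein, read 4.79 and 4.64 against 8.91, 10.78 and 10.65 (-5.40 ± 0.58). The phenol sulfotransferase Sult1a1 read 5.40 and 5.19 against 9.78, 10.00 and 10.53 (-4.81 ± 0.58). The organs stood apart by several log2 units in every pair of arrays for these 3 genes, which were picked for large differences without overlap. The amino acid carrier Slc6a14 differed by -5.26 ± 0.65, the peroxisomal oxidase Hao2 by -4.88 ± 0.64, and the gasdermins Gsdmc3 and Gsdmc2, which form pores in membranes, by -4.87 ± 0.52 and -4.79 ± 0.48. Annexin A1 (Anxa1) differed by -4.89 ± 0.38, the calcium-binding protein S100a6 by -4.64 ± 0.40 and thrombospondin 4 (Thbs4) by -4.48 ± 0.29. In all, 23 called genes were at least 16-fold lower and 30 at least 16-fold higher in the small intestine.

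Higher in the small intestine outside the lists were Prap1, Myrfl and Lgals2. Prap1, a secreted acidic protein of the gut, read 11.48 and 11.88 against 5.29, 5.43 and 3.81 (6.84 ± 0.73). Myrfl, related to the myelin regulatory factor, read 8.13 and 8.01 against 2.69, 2.21 and 2.43 (5.63 ± 0.30, adjusted p = 8.14e-10). The galectin Lgals2 read 11.56 and 11.47 against 5.72, 6.36 and 6.46 (5.33 ± 0.43). All 3 kept the call in the 16 settings. Of 13 gastric gland and pit markers 2 were called higher in the small intestine. Gkn3, a gastrokine, read 10.23 and 9.52 against 3.72, 3.61 and 3.87 (6.14 ± 0.35, adjusted p = 9.9e-10), and bright pyloric cells of the same line read 12.62 on average. The pepsinogen precursor Pgc was 2.87 ± 0.32 higher, with 7.05 and 7.10 in the small intestine, and its call was lost with all 25 arrays of the line and with all 42 arrays (adjusted p up to 0.345).

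Genes of nitrogen metabolism gave calls mostly towards the small intestine. Of 18 measured genes of the urea cycle and amino acid synthesis 6 were called higher in the small intestine and 1 lower, with a median of 0.68. Cps1, which makes carbamoyl phosphate from ammonia, read 11.25 and 11.61 against 5.56, 6.01 and 6.79 (5.31 ± 0.51, adjusted p = 1.21e-06). Arginase 2 (Arg2) read 7.96 and 9.37 against 4.29, 4.10 and 3.87 (4.58 ± 0.59). Nags, which makes the activator of Cps1, was 1.73 ± 0.25 higher, ornithine transcarbamylase (Otc) 1.97 ± 0.31 and ornithine aminotransferase (Oat) 2.04 ± 0.38. The Otc call was lost in limma with all 25 arrays of the line (adjusted p = 0.0752). Glul, which makes glutamine, read 9.93 and 9.72 against 11.77, 11.54 and 11.31 and was lower (-1.71 ± 0.24, adjusted p = 1.15e-04). Ass1, which acts after Otc in the cycle, differed by -0.69 ± 0.41 and was not called. Oat was not called without small intestine replicate 2 (adjusted p = 0.0579).

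Enzymes and carriers of xenobiotics, retinoids and bile acids gave calls in both directions. Of 26 cytochrome P450 genes 3 were called higher and 1 lower (median 0.41). Cyp2e1, an ethanol-inducible P450, read 8.53 and 8.24 against 3.88, 3.80 and 3.60 (4.62 ± 0.29, adjusted p = 4.82e-09). Cyp4v3 was 2.28 ± 0.34 and Cyp3a25 2.59 ± 0.55 higher, and Cyp2d34 was lower by a difference of -2.58 ± 0.50. Higher P450 calls numbered 7 without small intestine replicate 1. The calls of Cyp3a25 and Cyp2d34 were lost without replicate 2. Of 22 retinoid and aldehyde dehydrogenase genes 3 were called higher and 0 lower (median 0.02). Among the 3 were the alcohol dehydrogenase Adh6a (6.54 and 7.69 against 3.73, 3.34 and 3.38, difference 3.63 ± 0.38) and the retinol dehydrogenase Rdh7 (3.00 ± 0.43). Of 11 bile acid genes 3 were called higher and 1 lower (median 0.42). The export pump Abcc2 read 6.56 and 7.17 against 3.74, 3.33 and 3.69 (3.28 ± 0.29), and the ileal bile acid binding protein Fabp6 read 5.22 and 5.38 against 7.81, 7.82 and 7.77 (-2.50 ± 0.37). The Fabp6 call was lost in limma with all 25 arrays of the line (adjusted p = 0.123). Without small intestine replicate 2 Abcc2 was the 1 higher call left, with Nr1i3 and Slc51a lost, and Slc51a was lost in 7 of the 16 settings. Of 25 glutathione, glucuronyl and sulfotransferases 0 were called higher and 4 lower (median -0.06), led by Sult1a1 and by Gsta3 at -2.58 ± 0.38. Sult1c2 lost its call in 10 of the 16 settings, the block on the replicate number among them, and Gsta4 in 4, with its difference at -0.76 without small intestine replicate 1.

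Vitamin and mineral genes gave 3 calls of 22 towards the small intestine, beside 1.39% of all genes, and 0 towards the colon (median 0.18). The 3 were Rbp2, Rbp7 (2.82 ± 0.53) and the calcium carrier S100g (9.48 and 9.36 against 6.88, 6.67 and 6.79, difference 2.64 ± 0.63). The call of S100g was lost without any 1 of the 5 arrays and that of Rbp7 without small intestine replicate 1. Sterol synthesis genes gave 2 lower calls of 14, beside 1.5% of all genes, with a median of -0.67. The 2 were Sqle at -1.16 ± 0.27 and Dhcr7 at -1.21 ± 0.31. All 14 lay below 0. No sterol gene was called without small intestine replicate 1 or without colon replicate 2. Sqle was not called without colon replicate 1 either, and Dhcr7 lost its call in 8 of the 16 settings. Respiratory chain subunits gave 0 of 27 calls in limma and 0 under an unadjusted p of 0.05, with differences from -0.42 to 0.58.

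Enzymes that build the sugar chains of mucins and surface lipids gave calls in 1 direction. Of 33 measured glycosyltransferases 15 were called lower in the small intestine, 0 higher and 18 not at all, with a median of -1.003 and 7 differences above 0. Fut2, which adds the terminal fucose of blood group H, read 3.90 and 3.64 against 7.73, 8.16 and 7.85 (-4.14 ± 0.27, adjusted p = 5.34e-09). St6gal1, which adds a terminal sialic acid, read 3.64 and 3.94 against 7.12, 7.52 and 6.89 (-3.38 ± 0.29, adjusted p = 3.21e-07). B3gnt5, which starts lacto-series glycolipids, read 3.94 and 3.90 against 7.33, 7.43 and 7.86 (-3.62 ± 0.34). The small intestinal arrays lay below the median of all values for these genes, and the 3 colon arrays lay within 1 log2 unit of each other. B3gnt7 differed by -3.48 ± 0.39, Fut9 by -3.27 ± 0.36 and the core enzyme of O-glycans C1galt1 by -1.83 ± 0.24. The count of lower calls ranged from 11 to 16 as single bright arrays were left out. Of 22 claudin and junction genes 1 was called, beside 2.89% of all genes. It was Cldn8, a claudin of the distal colon, at -2.81 ± 0.46.

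**Figure D4:**
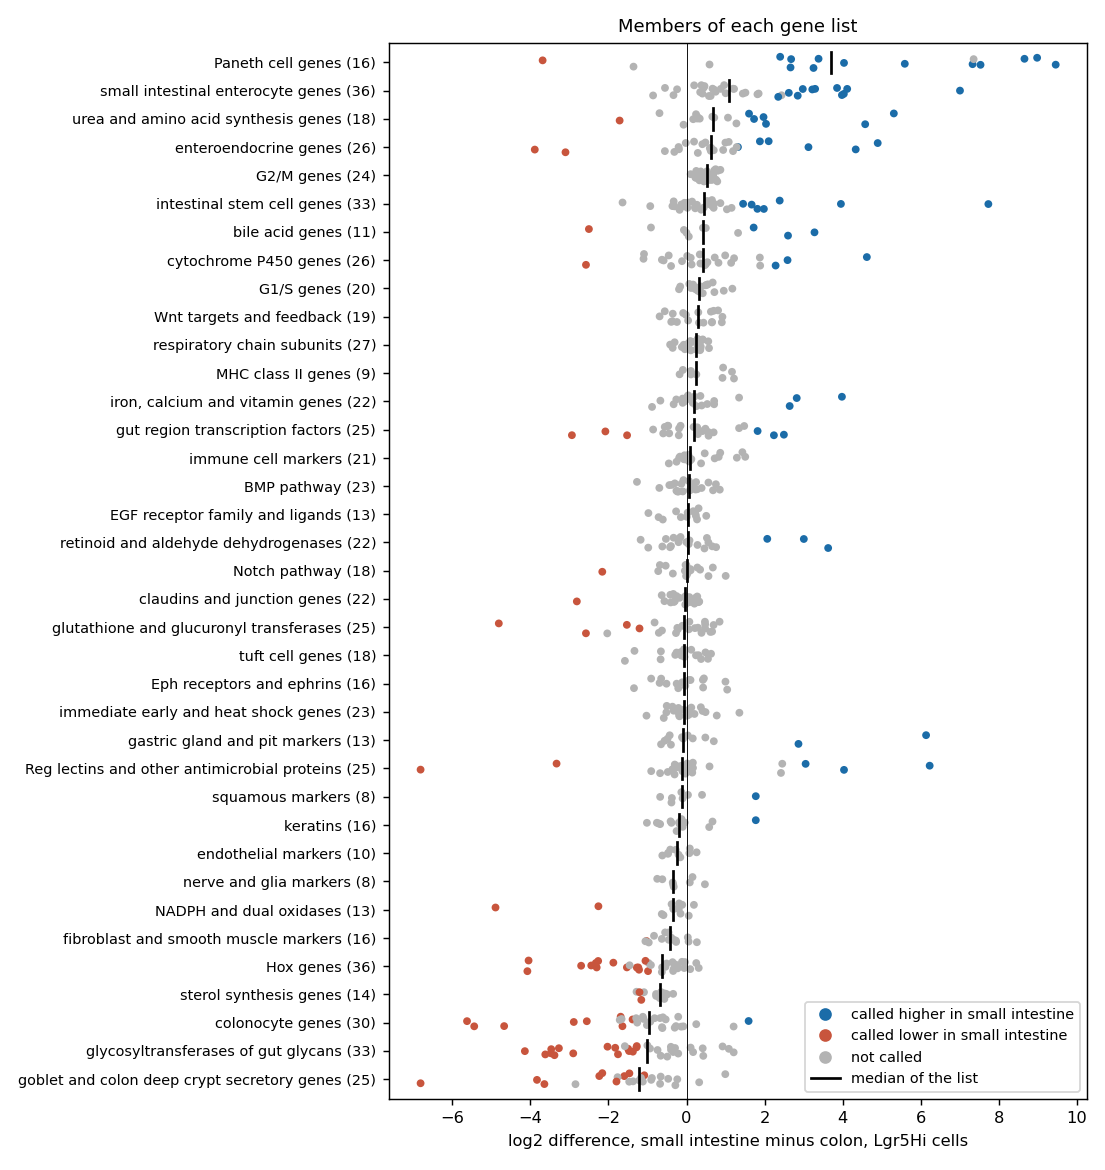
Log2 difference (small intestine minus colon, Lgr5Hi cells) of each measured member of 37 gene lists, with the number measured in brackets and a bar at the median of the list. Blue and red points are members called higher and lower, grey points were not called. The Paneth list has its median at 3.71, and the goblet, glycosyltransferase and colonocyte lists have the lowest medians.

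Markers of immune cells, fibroblasts and muscle, endothelium, and nerve and glia gave 1 call. Limma called 0 of 21 immune cell markers, 0 of 10 endothelial and 0 of 8 nerve and glia markers, with 3, 1 and 1 under an unadjusted p of 0.05. The summed immune level was 8.42 and 9.70 in the small intestine, where replicate 2 was higher, and 7.99 to 8.33 in the colon. Of 16 fibroblast and muscle markers 5 had an unadjusted p under 0.05, 11 were lower in the small intestine with no overlap between the groups and 1 was higher, beside 32.9% of all genes without overlap in either direction. Their median difference was -0.42, and their summed level was 8.03 and 8.00 in the small intestine and 8.33 to 8.65 in the colon. Its part in the organ difference was not tested. The 1 called was Pdgfrb at -1.03 ± 0.27, and this call was lost in 8 of the 16 settings. Of 9 MHC class II genes 0 were called, with 2 under an unadjusted p of 0.05. Of 8 squamous and of 16 keratin genes the 1 called was Krt15 (1.77 ± 0.37), lost without small intestine replicate 1. The X-linked Xist read 3.44 in colon replicate 1 and 9.39 to 10.76 in the other 4 bright arrays, and Y-linked genes were high in colon replicate 1, so the arrays did not all come from animals of 1 sex. Without that array 546 genes were called.

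The organ difference was then set beside that in the dim cells, which entered the same model and its estimate of the spread. Deviations of bright and dim arrays of equal number within each organ correlated at 0.14 to 0.37, so the dim cells were not taken as independent samples. In dim cells 1038 genes were called (4.68%), 472 higher in the small intestine (2.13%) and 566 lower (2.55%), and 499 without small intestine Lgr5Lo replicate 1. Of the 641 genes called in bright cells 632 had the same sign in dim cells and 484 were called there with that sign, 75.5% of the bright and 46.6% of the dim calls, and 0 were called with the opposite sign. Olfm4 read 9.56 and 10.51 in dim cells of the small intestine and 3.66 to 4.63 in those of the colon, with a difference of 5.98 ± 0.57. Retnlb differed by -6.91 ± 0.42 and Nox1 by -3.62 ± 0.38 in dim cells. The markers of each organ were thus present in dim cells too, and none of the 4 differed in its organ difference between bright and dim cells at an adjusted p under 0.05.

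The bright minus dim difference of the organ contrast was called for 3 genes, 0.0135% of those tested, with 501 under an unadjusted p of 0.05. Cyp2e1 had the larger organ difference in bright cells. It read 5.05 and 5.91 in dim cells of the small intestine and 3.58 to 3.89 in those of the colon, so the organ difference was 4.62 in bright and 1.74 in dim cells (difference between them 2.88 ± 0.41, adjusted p = 0.0104). For Afp, alpha-fetoprotein, the dim cells had the larger difference, 6.48 against 2.84 in bright cells (-3.64 ± 0.52, adjusted p = 0.0104). It read 5.67 and 6.99 in bright and 10.22 and 9.56 in dim cells of the small intestine, and 3.17 to 3.86 in all 6 colon arrays. Trpa1, an ion channel of enterochromaffin cells, read 3.09 and 3.76 in bright and 6.98 and 5.49 in dim cells of the small intestine, with 2.24 to 2.86 in the colon (-3.11 ± 0.51, adjusted p = 0.0446). Without small intestine Lgr5Hi replicate 1, small intestine Lgr5Lo replicate 1 or colon Lgr5Lo replicate 2 none of the 3 was called, and without small intestine Lgr5Hi replicate 2 there were 25 calls. With bright and dim arrays of equal number paired within their organ, a setting chosen after seeing the data, 0 genes were called in limma and 824 had an unadjusted p under 0.05, with adjusted p = 0.07 for Cyp2e1 and Afp and 0.206 for Trpa1. With a block on the number across organs Trpa1 was not called (adjusted p = 0.152).

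**Figure D5:**
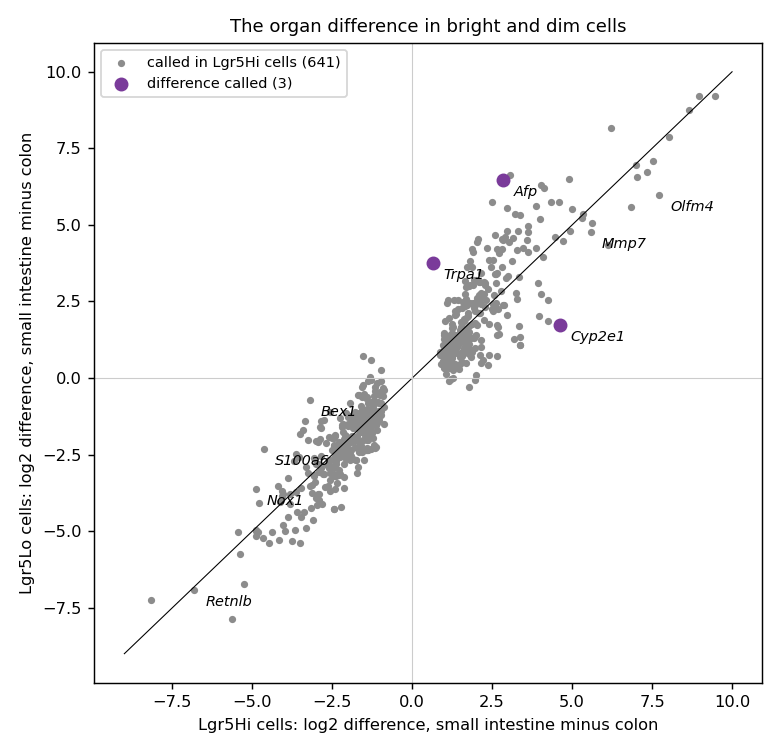
Log2 organ difference (small intestine minus colon) in Lgr5Hi cells (x axis) and Lgr5Lo cells (y axis) of the 641 genes called in Lgr5Hi cells, with the line of equality, and in purple the 3 genes called for the difference between bright and dim cells in the model without pairing. Most points follow the line, with Cyp2e1 below it and Afp and Trpa1 above it.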

How the data were processed

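RNA of sorted cells was amplified to cDNA, labelled with biotin and hybridised to Affymetrix mouse arrays, per the labels' protocols. The authors deposited log2 intensities per probe set, and the submitters' processing notes name RMA, oligo, Partek, limma 3.26.8 and R 3.2.3 without role or order. The genome build was not given in the sources used here. Of 41345 probe sets 23521 had 1 symbol, 1814 several and 16010 none. The probe set with the highest mean over all 42 arrays stood for each of 22180 genes. Promoter sequences are those of RefSeq GRCm38.p6.

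The model (limma 3.58.1 in R 4.3.3) took the 18 sorted arrays of the line, in 6 groups with 1 mean each, and left out whole tissue and crypt arrays. Spreads were moderated by eBayes, and p-values were adjusted by Benjamini-Hochberg over all genes. The model had 12 residual degrees of freedom. The fit was tested on simulated data. The number of arrays limits the precision.

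The 38 gene lists and the markers were chosen with earlier results of these data known, and lists were described by counts and medians, without a set test. Genes named were Lgr5 and the 4 markers, the 15 largest differences in each direction among called genes without overlap (leaving out unnamed gene models, small RNAs and sex-linked genes), every called Hox and region factor, and up to 6 members of each other list with the smallest p. Of the marker genes fixed for cell types the text gives only a part, and none of those fixed for tuft cells. Fstl1, Mptx1, Guca2b, Mki67, Cdx1, Cdx2, Gata6, Hnf4a, Hoxc13, Cyba, Ass1 and the genes named for promoter letters fall outside this rule and were chosen after their values were seen.

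Same-numbered bright arrays of the 2 organs had deviations from their group means that correlated at 0.10 and 0.11, in 2 pairs, so the numbers were not treated as pairs of organs. Bright and dim arrays of equal number within an organ correlated at 0.37 in the small intestine and at 0.14 to 0.24 in the 3 colon pairs. With 2 arrays in each small intestinal group, both pairs there must give the same value by arithmetic. The labels do not say whether arrays of equal number come from the same animals. No correlation between arrays of unequal number was taken for reference, so these values do not settle any pairing. The main model did not pair bright and dim arrays. A paired fit of the bright minus dim difference was added after seeing the data. Other settings were fits on other sets of arrays, a block on the replicate number, limma's trend and robust options, array weights, median centring, quantile normalization, a filter on low values, the mean of probe sets and leaving out single arrays.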

Additional observations from a re-analysis of the deposited data

Results flagged for a closer look

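The difference between bright and dim cells in small intestine minus colon passed the threshold for 3 genes in limma. For Cyp2e1 the organ difference was larger in bright cells, by 2.88 (adjusted p = 0.0104). For Afp it was larger in dim cells, with a value of -3.64 (adjusted p = 0.0104), and for Trpa1 likewise, with -3.11 (adjusted p = 0.0446). With 10 single arrays left out in turn the number of such genes ranged from 0 to 25, and with bright and dim arrays paired within their organ it was 0, so each of the 3 calls depends on the setting.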

How the results depend on the processing

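No named gene that was called changed direction in the 16 other settings, and of 132 named genes not called 11 changed sign. The balance of higher and lower calls did turn, with 379 higher and 280 lower after median centring and 198 and 161 without small intestine replicate 1, against 309 and 332. Calls between the organs in bright cells numbered 1043 (539 higher, 504 lower) when the 10 sorted intestinal arrays were fitted alone, 2095 (1064 and 1031) with array weights, and 944 with all 42 arrays (471 higher). In the other settings that kept all 5 bright arrays they numbered 577 to 710. Leaving out single bright arrays gave 359 to 576 calls, 178 to 274 higher and 161 to 321 lower, with the lowest count without small intestine replicate 1. In dim cells the 10 sorted arrays alone gave 1656 calls (796 and 860), and leaving out single dim arrays, an alternative chosen after seeing the data, gave 499 to 892 (246 to 433 higher, 253 to 459 lower). The bright minus dim difference had 0 to 25 calls as single arrays were left out, 2 with the 10 sorted arrays, and 0 with bright and dim arrays paired by replicate number within their organ. The causes were not tested.

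Whether the replicate numbers pair the organs was not settled. A block on the replicate number gave 687 calls (326 and 361) in bright cells, of which 584 were among the 641. It gave 1127 calls in dim cells and 2 for the difference between bright and dim cells. Median centring moved the median difference over all genes from -0.02 to 0.08 and made 57.5% of the calls higher, against 48.2% as deposited. Of 113 called named genes 76 kept the call in all 16 settings, and of the 30 largest differences 27 did, with Defa39, Reg1 and Car1 as the exceptions. A group of 2 arrays rests on each of them: without small intestine replicate 1 or 2 the lone array was assumed to vary like the other groups. No detection calls were used, so signal over background was not assessed for genes below the array median in both organs, among them the called Hoxd11 and Hoxb7.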

Other observations

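Bright cells of the pylorus in the same line (n = 4) give a further position along the gut for genes that part small intestine and colon. Their values are listed without a test. All 4 organ markers were low there, with Olfm4 at 4.59 ± 0.70 (SD), Mmp7 at 3.98 ± 0.34, Retnlb at 3.66 ± 0.45 and Nox1 at 3.12 ± 0.37. Some genes that were higher in the colon than in the small intestine were also high in the pylorus. Car2 read 10.54 ± 0.16, the fucosyltransferase Fut2 8.61 ± 0.34, annexin A1 (Anxa1) 7.98 ± 0.54, Creb3l1 9.68 ± 0.56 and Foxa1 8.19 ± 0.48. Glutamine synthetase (Glul) was at 11.56 ± 0.25 in the pylorus where colon and small intestine had means of 11.54 and 9.83. Atoh1 differed from these, at 4.45 ± 0.15, below both intestinal means of 6.24 and 8.40.

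The positional genes listed next were alike in pylorus and small intestine, while Foxa1, given above, was high in pylorus and colon. Pyloric values of Klf4, Foxd2 and Onecut2 are not given. Gata4 at 7.47 ± 0.31 and Gata5 at 8.00 ± 0.68 were high in the pylorus as in the small intestine, and Hoxb13 (3.69 ± 0.33), Hoxd13 (3.59 ± 0.15) and Hoxa5 (2.75 ± 0.18) were low in both. Anpep (10.75 ± 0.49), Ghrl (8.03 ± 0.63) and Lgals2 (10.19 ± 0.91) were high in the pylorus and the small intestine and low in the colon. Cps1 (4.52 ± 0.65) and Slc5a8 (3.39 ± 0.36) were low in the pylorus, so that each was high in 1 of the 3 organs alone.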
